A study of Mus musculus with 2 samples.

Results

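Mir103-1, Mir103-2 and Mir107 are the mouse genes of the microRNAs miR-103 and miR-107, and they were taken from the deposited counts by their GENCODE M21 gene names. All 3 names were found among the 2202 miRNA genes counted. MicroRNA sequencing libraries were prepared from gastrocnemius, one of the calf muscles, taken from 2 B6CASTF1/J females aged 10 days. The strain is the F1 hybrid of C57BL/6 and CAST mice. Per the labels, RNA shorter than 30 bases was selected from total RNA, each library stands for a separately numbered female, and no treatment or altered allele is named. Both libraries belong to 1 group, so the data give levels and the spread between animals and hold no contrast between conditions.

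MicroRNAs are cut from hairpin transcripts, and a mature strand from either arm (5p or 3p) guides silencing of messenger RNAs that pair with its seed, bases 2 to 8. miR-103 and miR-107 lie in introns of pantothenate kinase (Pank) genes, whose enzymes catalyse the rate-limiting step of coenzyme A synthesis. In mice, silencing both in liver and fat raises insulin sensitivity, and caveolin-1, a partner of the insulin receptor, is a described target.

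The sequences decide what can be counted on each gene, so the mature 3p strands are shown first, from RefSeq on build GRCm38.p6, with the seed in capitals. The 3p strand of Mir103-1 and Mir103-2 carries a single name, because it is the same molecule from both.
miR-103-3p: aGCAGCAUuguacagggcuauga
miR-107-3p: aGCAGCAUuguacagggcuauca
Counted from 1 at the 5′ end, miR-107-3p differs from miR-103-3p by the single substitution G22C over 23 bases. Both share the seed GCAGCAU, and no other name among 1679 mature mouse miRNAs in the table has it.

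The 5p strands differ by a base in each step from one gene to the next, again with the seed in capitals.
miR-103-1-5p: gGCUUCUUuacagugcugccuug
miR-103-2-5p: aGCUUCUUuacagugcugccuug
miR-107-5p: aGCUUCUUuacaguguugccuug
miR-103-1-5p and miR-103-2-5p differ by G1A, and miR-103-2-5p and miR-107-5p by C16U. The seed GCUUCUU was held by these 3 names only.

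The whole hairpins show how far the identity runs, and here capitals mark the bases covered by a stretch of at least 22 bases that also occurs in another of the 3 hairpins.
Mir103-1: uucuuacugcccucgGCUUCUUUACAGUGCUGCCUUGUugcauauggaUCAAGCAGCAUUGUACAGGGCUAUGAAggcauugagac
Mir103-2: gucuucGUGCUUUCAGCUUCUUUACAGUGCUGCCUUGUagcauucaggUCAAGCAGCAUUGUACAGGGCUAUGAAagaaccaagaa
Mir107: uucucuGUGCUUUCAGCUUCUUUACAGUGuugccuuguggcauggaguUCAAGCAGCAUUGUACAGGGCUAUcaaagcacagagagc
On the 3p side Mir103-1 and Mir103-2 are identical over 27 bases, which cover the whole mature strand. Mir107 shares 24 of these bases, up to base 21 of the mature strand. On the 5p side Mir103-1 and Mir103-2 are identical over 23 bases, Mir103-2 and Mir107 over 23, and Mir103-1 and Mir107 over 14.

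Each gene lies in an intron of its host and on the same strand. Mir103-1 (ENSMUSG00000065553.1, chr11:35782396-35782481, plus strand) is in intron 5 of the single annotated transcript of Pank3, 688 bases after the exon before it and 966 bases ahead of the next. Mir103-2 (ENSMUSG00000065563.1, chr2:131288052-131288137, plus strand) is intronic in 7 of 8 annotated transcripts of Pank2, and the remaining transcript does not span it. Mir107 (ENSMUSG00000065594.1, chr19:34820687-34820773, minus strand) is intronic in 3 of 4 transcripts of Pank1, and the remaining transcript does not reach it. Mir107 lies 326 bases after the upstream exon in all 3, and Mir103-2 lies 454 bases after it in 6 of its 7. Pank4, also in the Pank family, contained no annotated miRNA gene. No other gene overlapped the 3 on either strand.

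Mir107 was the most abundant of the 3 by counted reads. It had 190 sense reads in replicate 1 and 248 in replicate 2, or 54.1 and 62.8 reads per 1e6 sense reads on miRNA genes (CPM). Wilson 95% intervals were 47.0 to 62.4 CPM in replicate 1 and 55.4 to 71.1 CPM in replicate 2, so the animals' intervals overlap. The mean was 58.5 ± 6.13 CPM (SD, n = 2), rank 196 of 2202 genes. The files record no molecular identifiers for the reads, and all intervals given cover counting error only. In bulk tissue, fewer cells that make a miRNA and less of it per cell cannot be told apart.

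Mir103-2 had 24 sense reads in replicate 1 and 18 in replicate 2, or 6.84 CPM (Wilson 95% interval 4.59 to 10.2) and 4.56 CPM (2.88 to 7.20). The mean was 5.70 ± 1.61 CPM (SD, n = 2), rank 296. Mir103-1 had 0 reads in replicate 1 and 1 read in replicate 2. The limit that a count of 0 allows, 3 reads, was 0.854 CPM in replicate 1, and the single read in replicate 2 stood for 0.253 CPM (Wilson 95% interval 0.0447 to 1.43). Both limits concern only reads with a single matching place. Mir107 and Mir103-2 reached 2 CPM in both animals, the level used here for detection, and Mir103-1 reached it in neither. Of all 2202 genes, 332 reached it in both animals. No antisense read fell on any of the 3 genes, and their unstranded counts equalled the sense counts.

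**Figure D1:**
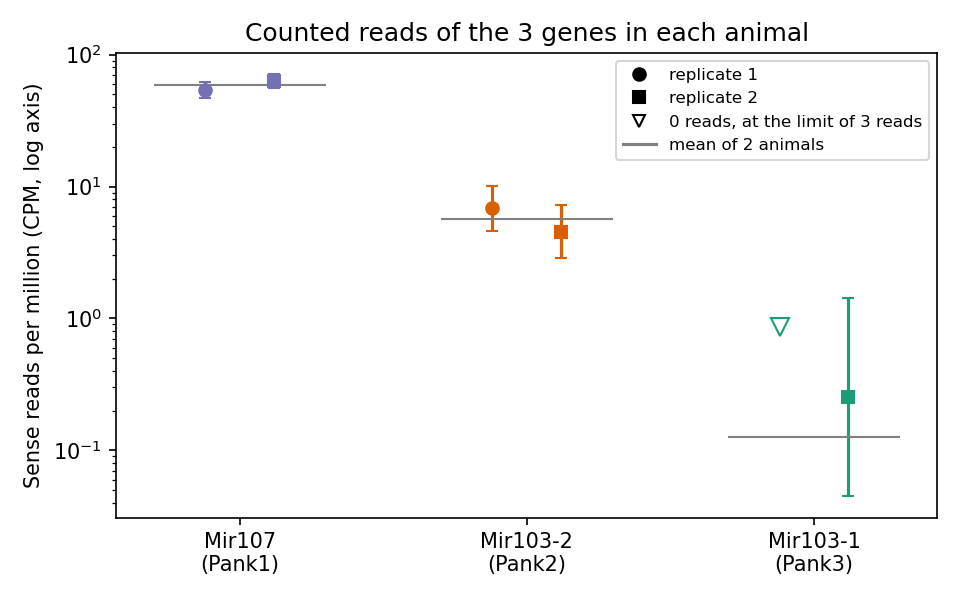
CPM of sense reads on each gene (log axis), with host genes in brackets. Circles are replicate 1, squares replicate 2, bars Wilson 95% intervals and grey lines the mean of both animals; the open triangle marks 0 reads at the limit of 3 reads. Mir107 lies near 58.5 CPM and Mir103-2 near 5.70 CPM. Mir103-1 had 0 reads in replicate 1, drawn at the limit, and 1 read in replicate 2.

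Within the 3 genes, Mir107 held 88.8% of the reads in replicate 1 (190 of 214, Wilson 95% interval 83.9% to 92.3%) and 92.9% in replicate 2 (248 of 267, 89.2% to 95.4%). Mir103-2 held 11.2% in replicate 1 (7.65% to 16.1%) and 6.74% in replicate 2 (4.31% to 10.4%). The order was the same in both animals, and the intervals of Mir107 and Mir103-2 lay far apart in each. These shares are parts of the same total, so their intervals are not independent of each other. Mir107 exceeded Mir103-2 by 7.92-fold in replicate 1 (exact 95% interval 5.16 to 12.7) and 13.8-fold in replicate 2 (8.54 to 23.6). Over both libraries together, Mir103-2 had 42 reads and Mir103-1 had 1, a ratio of 42.0 with an exact 95% interval of 7.14 to 1698. The 3 genes together stood at 64.3 ± 4.70 CPM (SD, n = 2), 0.00610% of sense reads in replicate 1 and 0.00676% in replicate 2.

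This order holds for placed reads only. Reads that aligned to several places were counted on no gene, and they numbered 3469647 in replicate 1 and 4718603 in replicate 2, or 42.6% and 46.4% of all reads in the file. How many of them came from miR-103 or miR-107 is not recorded in the counts. The stretches in capitals above say which reads could have been set aside. A read that starts at the annotated 5′ end of miR-103-3p matches both Mir103 hairpins until it is 25 bases long, 2 bases past the mature end. A read that starts at the 5′ end of miR-107-3p matches the Mir103 hairpins as well until it is 22 bases long and takes in the base that differs. Reads from the annotated 5′ end of any of the 3 5p strands matched a single annotated hairpin at 18 bases, the shortest length tried. Exact miR-103-3p reads thus match both Mir103 genes and could not be placed on either. The 5p and 3p strands cannot be told apart in any of the counts. The values are no measure of total miR-103 or of total miR-107. Reads from the annotated 3p start match a single hairpin from 22 bases for Mir107 and from 25 bases for both Mir103 genes. The ratios between the genes thus compare counts that do not cover the same read lengths.

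**Figure D2:**
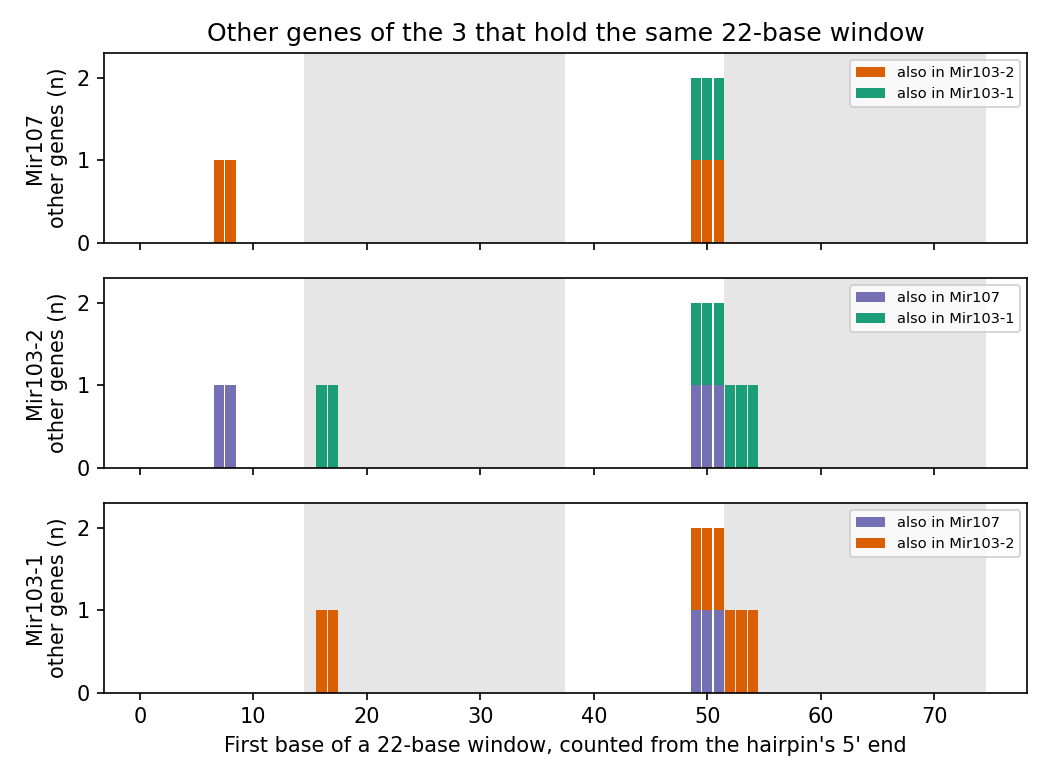
For each hairpin, the number of the other 2 genes (vertical axis) that hold the same 22-base window, by the window's first base counted from the hairpin's 5′ end. Grey bands are the annotated 5p and 3p strands. Shared windows number 5 in Mir107, 10 in Mir103-2 and 8 in Mir103-1, and those in both other genes begin just ahead of the 3p strand.

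Counted in windows of 22 bases, 8 of 65 in Mir103-1, 10 of 65 in Mir103-2 and 5 of 66 in Mir107 recurred in another annotated hairpin, and 3 windows were common to all 3 genes. Every shared window was shared within the 3 genes. None of their windows occurred in any of the other 141764 GENCODE transcripts searched on both strands. Introns and intergenic sequence were not searched here.

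Mir103-1 and Mir103-2 form 1 of 45 groups of counted genes found with the same mature strand in the RefSeq strands used. These groups are not a complete list. Mir1a-1 and Mir1a-2, and Mir133a-1 and Mir133a-2, share windows of 22 bases with another hairpin but are not among them. Of these groups, 38 had exactly 2 genes and 31 had any read. Mir103-2 and Mir103-1 together stood at 5.82 CPM, rank 24 of the 45. The 3 groups with the highest sums were let-7f (Mirlet7f-2 and Mirlet7f-1) at 2777 CPM, miR-128 (Mir128-1 and Mir128-2) at 1503 CPM and miR-16 (Mir16-1 and Mir16-2) at 1003 CPM. The sums of the 45 groups spanned a wide range, in placed reads only. How many reads each group lost to several matching places was not tested. All 92 genes of these 45 groups held 1.03% of sense reads in replicate 1 and 0.985% in replicate 2.

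The miR-15 and miR-107 group is the wider family to which miR-103 and miR-107 are assigned in the literature, and its strands share the letters AGCAGC at or next to the 5′ end. The list used here has 8 other genes and was not drawn up by searching for these letters. The strands are shown to compare where the letters begin, with AGCAGC in capitals.
miR-107-3p: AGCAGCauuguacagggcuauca
miR-15a-5p: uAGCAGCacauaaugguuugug
miR-15b-5p: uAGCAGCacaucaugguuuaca
miR-16-5p: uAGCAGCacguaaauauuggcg
miR-195a-5p: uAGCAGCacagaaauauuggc
miR-322-5p: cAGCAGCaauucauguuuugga
miR-497a-5p: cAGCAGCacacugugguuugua
miR-503-5p: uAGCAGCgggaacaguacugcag
The letters begin at base 1 in miR-103-3p and miR-107-3p and at base 2 in the other 7 strands, so the seed is shifted by a base. Among 1679 mature strands searched on their own strand, 13 (0.774%) had AGCAGC from base 1 or 2, and the 2 from base 1 were miR-103-3p and miR-107-3p. The 4 of the 13 that are not on the list come from Mir195b, Mir6342, Mir6353 and Mir6419, and each of these genes had 0 sense reads in both libraries.

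All 8 other genes listed for the miR-15 and miR-107 group were detected, beside 332 of all 2202 genes. Each of the 8 had a higher mean CPM than Mir107 in placed reads. Counts were not divided by length, and the strands with these letters are 21 to 23 bases long in every gene. Mir322, known to promote exit from the cell cycle as muscle cells differentiate, stood at 14923 ± 1989 CPM (SD, n = 2). Mir503, its neighbour in the same cluster, stood at 378.6 ± 41.7 CPM. Mir195a and Mir497, a cluster described in mouse satellite cell quiescence, stood at 2328 ± 9.92 and 593.5 ± 29.7 CPM. Among the cell cycle regulators of the miR-15 and miR-16 clusters, Mir16-1 stood at 823.3 ± 21.5 CPM, Mir15a at 570.5 ± 44.7 CPM, Mir15b at 346.0 ± 17.8 CPM and Mir16-2 at 179.5 ± 3.94 CPM. The lowest of the 8, Mir16-2, had 182.3 and 176.7 CPM in replicates 1 and 2, above the 54.1 and 62.8 CPM of Mir107 in every animal. Of these 8 genes, Mir16-1 and Mir16-2 share windows of 22 bases, and the other 6 do not, against all 3 genes of miR-103 and miR-107. Together the 8 genes held 1.87% of sense reads in replicate 1 and 2.15% in replicate 2.

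**Figure D3:**
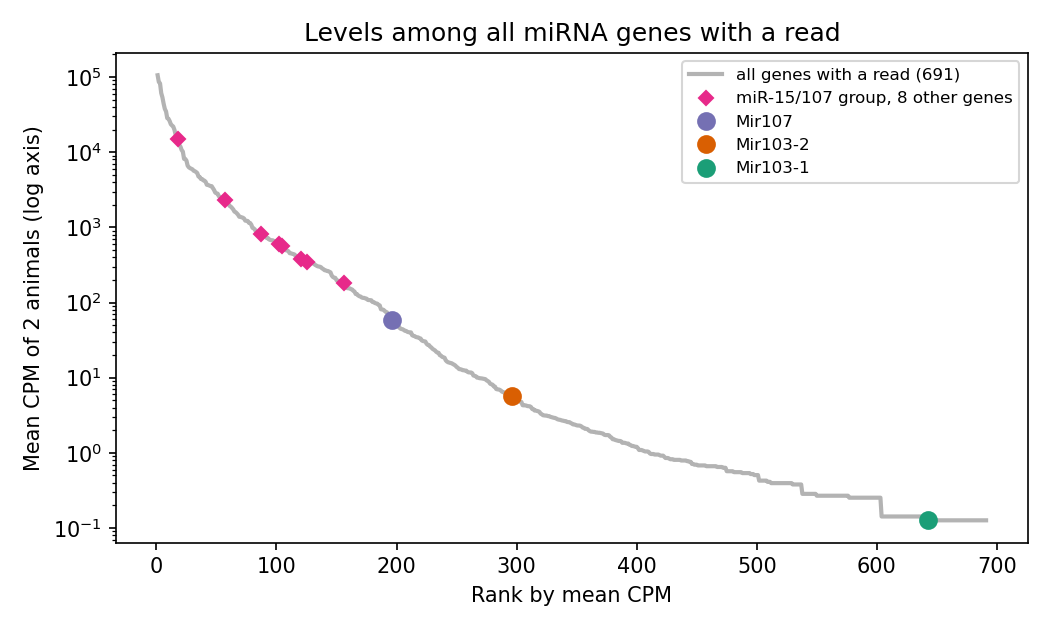
Mean CPM of the 2 animals (log axis) against rank for the 691 miRNA genes with a read. Mir107 (58.5 CPM, rank 196), Mir103-2 (5.70 CPM, rank 296) and Mir103-1 (tied at the lowest level) all lie right of the 8 other listed genes of the miR-15 and miR-107 group (diamonds).

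The genes nearest in mean level give the scale. Next above Mir107 were Mir3072 at 64.4 ± 18.1 CPM and the miRNA entry named Snord43 at 61.1 ± 5.46 CPM, and next below were Mir138-1 at 56.5 ± 23.5 CPM and Mir598, with 40.4 CPM in replicate 1 and 70.1 CPM in replicate 2. Next above Mir103-2 were Mir6540 at 6.11 ± 4.61 CPM and Mir212 at 6.05 ± 0.313 CPM, and next below were Mir758 at 5.59 ± 2.17 CPM and Mir194-2 at 5.51 ± 0.269 CPM. These neighbours were picked by their closeness in mean CPM, so their likeness in level to Mir107 and Mir103-2 was fixed in advance. Mir103-1 was tied with 50 other genes at 1 read, in replicate 2 only.

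Neither Mir107 nor Mir103-2 differed between the 2 libraries past the threshold. Mir107 had a log2 ratio of replicate 1 over replicate 2 of -0.21, with 0.5 added to each count, and a fold of 0.862 (exact 95% interval 0.710 to 1.05, exact binomial p = 0.126, adjusted p = 0.231). Mir103-2 had a log2 ratio of 0.58 and a fold of 1.50 (0.781 to 2.93, exact binomial p = 0.217, adjusted p = 0.349). The interval of Mir107 leaves out 2-fold in either direction, whereas that of Mir103-2 includes a 2-fold higher level in replicate 1. Mir103-1 had under 10 reads over both libraries and was not tested. Of the 395 genes tested, 163 (41.3%) had an adjusted p under 0.05, and 28 (7.09%) also differed by at least 2-fold, against 0 of the 2 members tested under either rule. The median size of the log2 ratio was 0.27 over all 395 genes, so Mir107 lay under it and Mir103-2 above it. The common biological coefficient of variation over 320 genes was 0.189 in edgeR. The test compares these 2 libraries, each of a single animal.

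**Figure D4:**
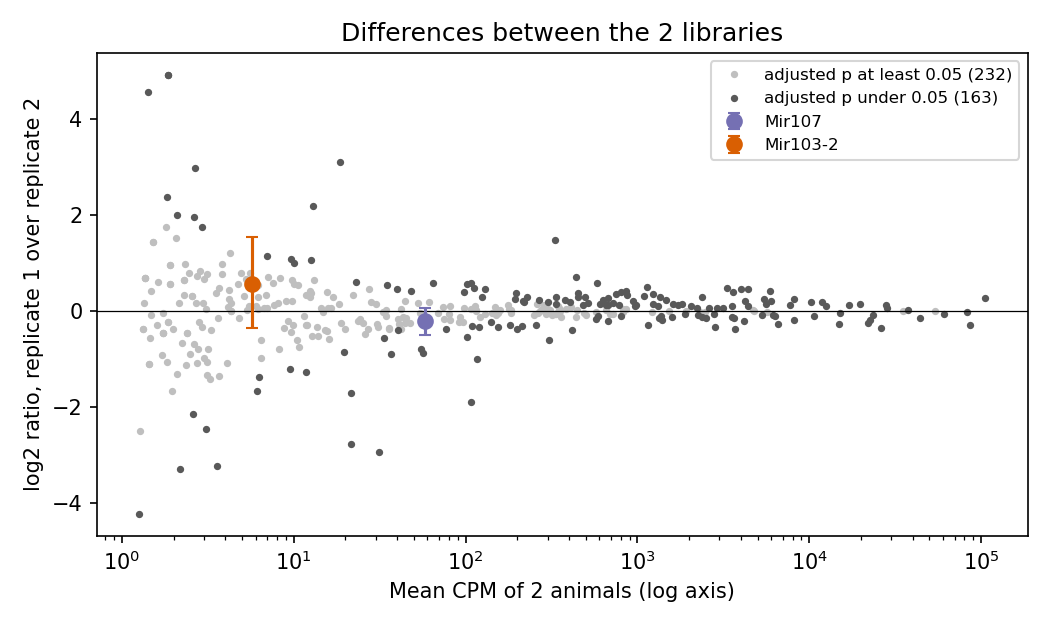
Log2 ratio of replicate 1 over replicate 2 against mean CPM (log axis) for the 395 genes tested, dark where the adjusted p was under 0.05. Bars on Mir107 and Mir103-2 are exact 95% intervals without the added 0.5 reads, and both cross 0.

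Of the 8 other listed genes of the miR-15 and miR-107 group, 1 was higher and 3 were lower in replicate 1 at an adjusted p under 0.05, against 24.3% and 17% of all genes tested in these directions, and none by 2-fold. Higher was Mir503, with a log2 ratio of 0.23 (exact adjusted p = 0.000138). Lower were Mir322 at -0.27 (exact adjusted p = 2.18e-214), Mir15a at -0.16 (exact adjusted p = 0.0011) and Mir497 at -0.10 (exact adjusted p = 0.0460). The median log2 ratio of the 8 was 0.02, beside 0.03 over all genes tested. The sizes of these ratios were all under 0.28, and the small p of Mir322 comes with 47454 and 64497 reads in replicates 1 and 2.

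Other miRNAs with a described role in insulin or glucose handling stood both above and below Mir107 in placed reads. Of 12 such genes, 8 were detected, beside 332 of all 2202 genes. Mir126a, an endothelial miRNA that targets Irs1, an adaptor of the insulin receptor, was highest at 44175 ± 3025 CPM (SD, n = 2), followed by Mir143, which impairs insulin signalling in mouse liver, at 25998 ± 4515 CPM. Mir93, described as a regulator of the glucose transporter GLUT4, stood at 1378 ± 64.2 CPM. Mir29a stood at 120.2 ± 19.0 CPM, and Mir223, a myeloid miRNA, had 128.5 CPM in replicate 1 and 85.6 CPM in replicate 2. Mir107 came next in this order. Below it were Mir29c at 40.3 ± 7.83 CPM, Mir33, in an intron of the sterol regulator gene Srebf2, at 9.02 ± 0.940 CPM and Mir375, a miRNA of pancreatic islets, at 6.49 ± 1.92 CPM. Mir103-2 stood next to Mir375, within the spread of both. The copies Mir29b-1 and Mir29b-2 had the same level in placed reads, 1.87 ± 0.224 CPM. Exact reads of miR-29b-3p match both copies and could not be placed on either, so this is no measure of total miR-29b. Mir96 and Mir802 had 2 reads and 1 read over both libraries. Of 10 tested, 1 was higher and 5 lower in replicate 1 at an adjusted p under 0.05, beside the 24.3% and 17% of all genes tested, and none passed 2-fold. Their median log2 ratio was -0.22, beside 0.03 over all genes tested.

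The tissue label was checked against marker miRNAs. Of 9 striated muscle miRNA genes 8 were detected, beside 332 of all 2202 genes. The 9 held 11.7% of sense reads in replicate 1 and 9.61% in replicate 2, nearly all placed on Mir206. Mir1a-1, Mir1a-2, Mir133a-1 and Mir133a-2 share windows of 22 bases with another hairpin, so reads from them could have been set aside. Their counts are no measure of total miR-1 or miR-133a. Of 18 genes marking other cell types 12 were detected, with 6.89% and 7.91% of sense reads in replicates 1 and 2, most of them on Mir126a and Mir143. Of the 12 tested, 6 were higher and 3 lower in replicate 1 at an adjusted p under 0.05, beside 24.3% and 17% of all genes tested. Past 2-fold, beside 7.09% of all genes tested, were the liver miRNA Mir122 (2.79-fold) and the epithelial miRNAs Mir205 (4.69-fold) and Mir200c (2.11-fold), all higher in replicate 1. The part of these cell types in the levels of Mir107 and Mir103-2 was not tested. Of the 8 striated muscle genes tested, 1 was higher and 3 were lower in replicate 1 at an adjusted p under 0.05. Over all genes tested, 24.3% were higher and 17% lower. None of the 8 passed 2-fold, beside 7.09% of all genes tested. Mir124a-1, Mir124a-2, Mir124a-3 and Mir9-2 had 0 reads, and they share windows with their copies.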

How the data were processed

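Raw read counts per miRNA gene, not normalized by the authors, were deposited for 2 samples, with unstranded, sense and antisense columns for 2202 genes and 4 summary rows. Per the file headers of the deposited descriptions, the build was mm10 and the annotation GENCODE M21. Which aligner, trimming and filters were used is not given in the sources used here. Column roles were read from the layout of the files and the column totals. Of 8152102 and 10176117 reads in the files of replicates 1 and 2, 3510897 and 3949733 were sense reads on miRNA genes. Summary rows, among them unaligned reads (11.8% and 12.3%) and reads outside miRNA genes (2.55% and 2.52%), stayed out of library totals and tests.

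Levels are CPM of sense reads. Replicate numbers are those of the labels, which number separate females. Both carry the same donor entry, and that they are separate animals rests on the labels alone. The p-values measure only the difference between these 2 libraries. The libraries were compared by a two-sided exact conditional binomial test (scipy 1.17.1), with Benjamini-Hochberg adjustment over all genes with at least 10 reads. The test was tried on simulated counts with counting error only. Variation between animals was not simulated. TMM factors and the coefficient of variation came from edgeR 4.0.16, size factors from DESeq2 1.42.0, in R 4.3.3. Mature strands and hairpins are from RefSeq (GRCm38.p6), where all 3 members matched by symbol, and windows were compared over GENCODE hairpins. A genome sequence was not used here. Named genes were the members, the gene lists of the miR-15 and miR-107 group and of insulin and glucose handling, genes with the letters or seed searched, marker miRNAs of striated muscle and of other cell types, the 2 genes nearest in mean CPM on each side and the 3 groups of genes with an identical mature strand that had the highest sums. For Mir103-1, ties leave these neighbours undefined, and none are named. The members and lists were chosen with earlier results of these data known. Alternatives covered the count column, scaling, denominator, low-count filter, window length and leaving out each replicate.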

Additional observations from a re-analysis of the deposited data

How the results depend on the processing

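Of 49 alternative values, 40 kept their direction and side of the threshold, or stayed within the replicate spread or within 1.5 times the count, and 0 reversed. Part of these 40 was fixed in advance. With n = 2, levels and shares without either replicate always lie within the replicate spread. Unstranded shares equal the sense shares because the counts are the same. Unstranded counts put Mir107 at 70.0 CPM, since the library totals are smaller without strand. Per 1e6 of all reads in the file, Mir107 stood at 23.8 CPM and Mir103-2 at 2.36 CPM. Leaving out either replicate gave 54.1 to 62.8 CPM for Mir107 and 4.56 to 6.84 CPM for Mir103-2. A minimum of 50 reads left 13 genes past 2-fold, because 287 genes were then tested in place of 395, and Mir103-2 had too few reads to be among them. Windows of 18 bases raised the shared windows to 16 in Mir103-1, 22 in Mir103-2 and 13 in Mir107, and windows of 20 bases to 16 in Mir103-2 and 9 in Mir107. The adjusted p of the exact binomial test ranged from 0.113 to 0.357 for Mir107 and from 0.349 to 0.519 for Mir103-2 over the settings run. No paired analysis was possible because all samples belong to 1 group. Depth limits Mir103-2, with 42 reads, and Mir103-1, with 1 read, most.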
